A study of Mus musculus with 8 samples.

Results

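The genes described here carry out antigen presentation by MHC class I in mouse pre-B leukaemia cells. They were taken as 10 named genes, H2-K1, H2-D1, B2m, Tap1, Tap2, Tapbp, Psmb8, Psmb9, Psmb10 and Nlrc5, and every probe that the array files name for them was used. This gave 12 of the 55681 probes that are not controls, with 2 probes each for H2-K1 and Nlrc5, and all 10 genes were among the 18793 genes tested. The groups were '18-81' cells with miR-125b, '18-81' cells with miR-Neg, 70Z/3 cells with miR-125b and 70Z/3 cells with miR-Neg, with 2 arrays each from 2 independent experiments. '18-81' cells are pre-B cells that Abelson murine leukaemia virus transformed, and 70Z/3 is a pre-B lymphoblast line. Cells of both lines received 10 nM of a synthetic duplex, pre-miR-125b or the control miR-Neg, with a lipid reagent and fresh medium after 8 h, and were harvested for RNA 48 h after transfection. All 4 groups thus carried a duplex and the lipid, in an experiment made to find targets of miR-125b, and no untransfected cells enter the comparisons.

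MHC class I molecules display short peptides from the cell's own proteins to CD8 T cells and are found on nearly all nucleated cells. A heavy chain, encoded in the mouse by H2-K1 or H2-D1, folds with the light chain beta-2 microglobulin (B2m). The proteasome cuts proteins into peptides, and in lymphoid cells or after interferon its catalytic subunits are exchanged for Psmb8, Psmb9 and Psmb10, which form the immunoproteasome. Tap1 and Tap2 together pump the peptides into the endoplasmic reticulum, and tapasin (Tapbp) holds the empty class I molecule at this pump until a peptide fits. Nlrc5 is a transactivator that acts on the promoters of these genes. The microRNA that was added, mature miR-125b-5p, is shown here with its seed, bases 2 to 8, in capitals, as given by RefSeq on GRCm38.p6, where the same mature sequence is listed for Mir125b-1 on chromosome 9 and Mir125b-2 on chromosome 16.
mmu-miR-125b-5p: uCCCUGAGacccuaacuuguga

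Levels are given as log2 of the array's processed signal minus the 75th percentile of the same array, so that 0 is the brightness of the probe at that percentile. Levels of different probes cannot be ranked against each other, because probes differ in how well they bind. Between 38.9% and 45.8% of the spots of an array were well above background, and replicate 2 of 70Z/3 with miR-Neg was the dimmest array, with a 75th percentile of 337.7 signal units against 504 to 725.1 on the other 7. All 8 markers of pre-B cells, Pax5 among them, were well above background in every group, while none of 4 stromal markers was in any group. The summed linear level of the pre-B markers was 329 to 376 on the '18-81' arrays and 662 to 1410 on the 70Z/3 arrays. Of 7 T-cell markers, 6 were above background on both arrays of each '18-81' group and 5 of each 70Z/3 group, at summed levels of 15 to 24.1 in '18-81' and 36.4 to 136 in 70Z/3. Of 7 myeloid markers, 3 were above background in each '18-81' group, 5 in 70Z/3 with miR-125b and 3 in 70Z/3 with miR-Neg, at summed levels of 42.8 to 78.7 in '18-81' and 30.8 to 46.1 in 70Z/3. Of 4 erythroid markers, Klf1 was above background in every group and Hbb-bt in both 70Z/3 groups, at summed levels of 0.154 to 0.23 in '18-81' and 2.15 to 6.8 in 70Z/3. Of 4 dendritic cell markers, Flt3 was above background in every group but 70Z/3 with miR-Neg, at summed levels of 0.125 to 0.236 in '18-81' and 0.14 to 0.219 in 70Z/3. Whether these marker levels have a part in the differences below was not tested. Each group occupied 1 column of the slide, so the column and the group cannot be told apart, and since these are bulk cultures, fewer expressing cells and less RNA per cell cannot be told apart either.

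The class I genes differed between the lines and were not called between the duplexes. In '18-81' cells 6 of the 10 were lower than in 70Z/3 cells, H2-K1, H2-D1, B2m, Psmb9, Psmb10 and Nlrc5, and none was higher (adjusted p under 0.05, both duplexes averaged). Among all 18793 genes 31.7% passed this test in either direction and 16.2% passed as lower. In the same comparison 5959 genes were called, 2921 higher and 3038 lower with the 75th percentile as the scale, and 4081 higher and 2674 lower when arrays were scaled to their medians, under which the same 6 of the 10 were called lower. With the replicate number as a block 9019 genes were called, 4581 higher and 4438 lower, and 7 of the 10, Tap1 with them. The members had a median difference of −0.98 on the log2 scale, against 0.02 for all genes, and all 10 lay below the median of all genes. With miR-125b against miR-Neg 0 of the 10 passed in either line. These comparisons are of 1 line with another, each the product of 1 transformation, so a difference belongs to these lines.

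**Figure D1:**
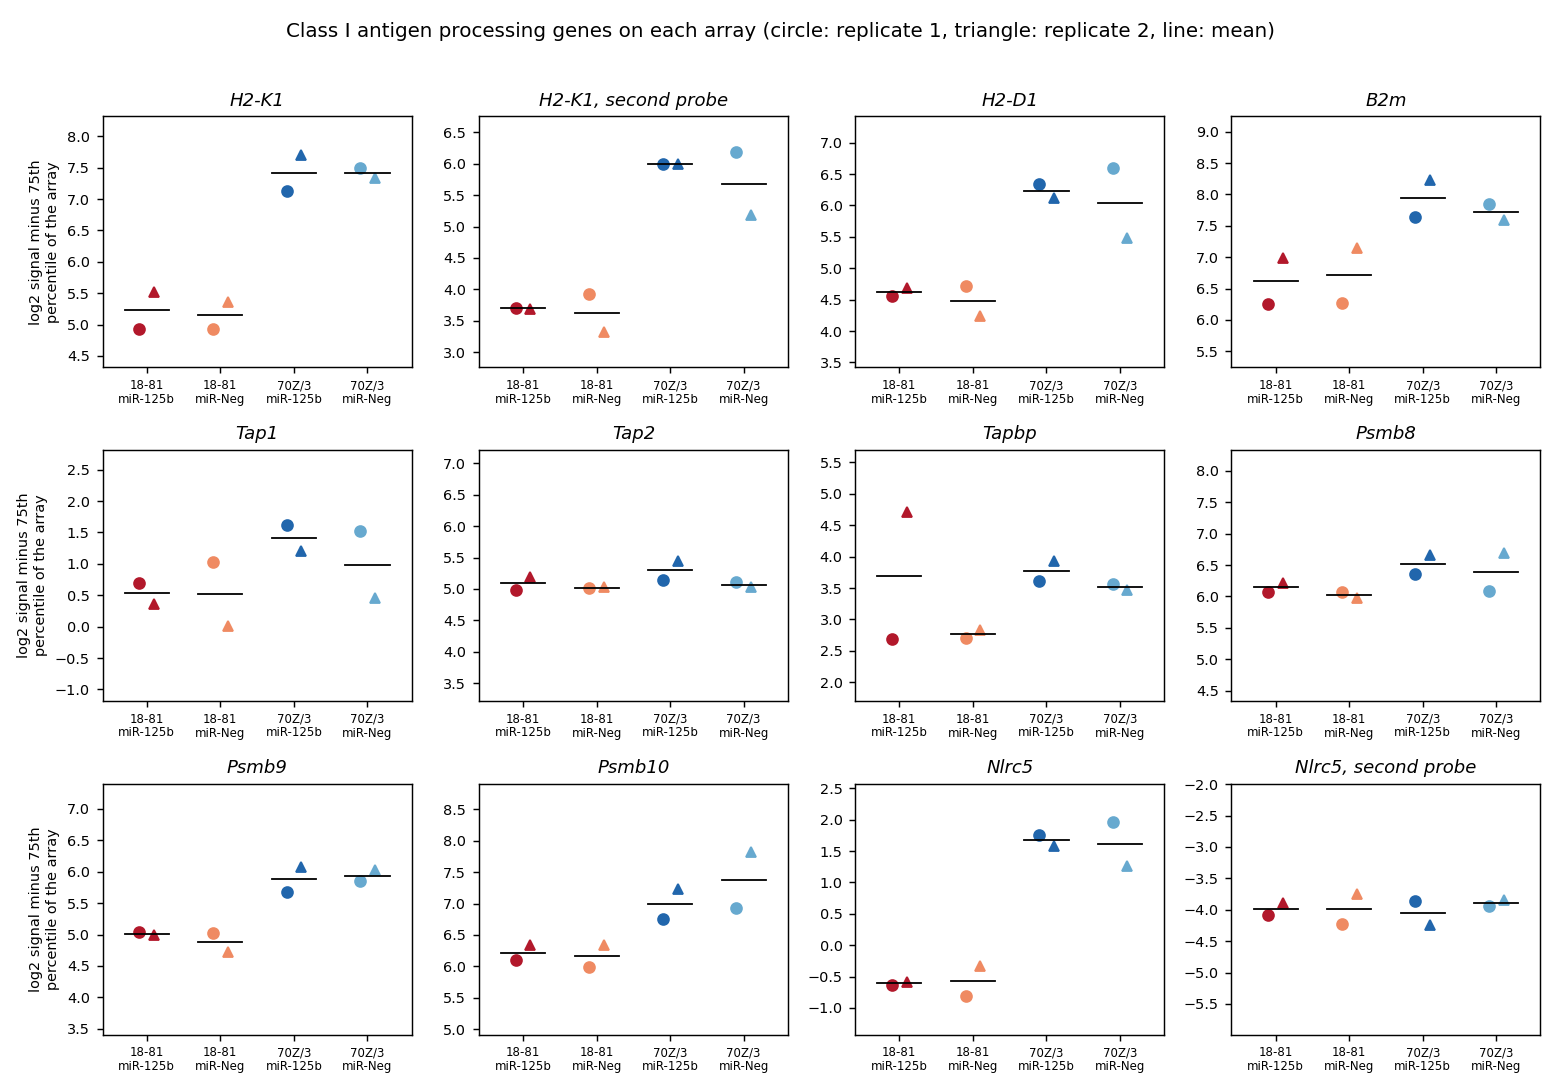
Level of each probe of the 10 genes on each of the 8 arrays, as log2 signal minus the array's 75th percentile, with circles for replicate 1, triangles for replicate 2 and a line at the mean of the 2 arrays. Every panel spans at least 4 log2 units. H2-K1, H2-D1, B2m, Psmb9, Psmb10 and the first Nlrc5 probe have all '18-81' arrays below all 70Z/3 arrays, while the second Nlrc5 probe lies near −4 in all 4 groups.

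H2-K1, the heavy chain of the K molecule, had levels of 4.94 and 5.52 in '18-81' with miR-125b and 4.94 and 5.36 in '18-81' with miR-Neg, against 7.13 and 7.70 in 70Z/3 with miR-125b and 7.49 and 7.34 in 70Z/3 with miR-Neg. The 4 arrays of '18-81' averaged 5.19 ± 0.30 and the 4 of 70Z/3 averaged 7.41 ± 0.24 (SD), and the highest '18-81' array lay 1.61 below the lowest 70Z/3 array. The difference was −2.23 ± 0.24 (SE, adjusted p = 0.000187), which is 4.68-fold lower in '18-81'. This probe lies at chr17:34133055-34133114 (mm9, minus strand). Of its 10 spots per array, 8 to 10 were kept, and those kept had a standard deviation of at most 0.07. The replicates of 1 group, which are separate cultures, differed by up to 0.59, in '18-81' with miR-125b. A second H2-K1 probe, at chr17:34133984-34134043 (mm9), stood at 3.71, 3.69, 3.92 and 3.32 on the '18-81' arrays and at 6.00, 6.00, 6.19 and 5.18 on the 70Z/3 arrays. In the fit over all probes it was 4.55-fold lower in '18-81' (−2.19 ± 0.28, adjusted p = 0.000446).

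H2-D1, the heavy chain of the D molecule, had levels of 4.57 and 4.69 in '18-81' with miR-125b and 4.71 and 4.24 in '18-81' with miR-Neg, against 6.34 and 6.12 in 70Z/3 with miR-125b and 6.60 and 5.48 in 70Z/3 with miR-Neg. All 4 arrays of '18-81' were below all 4 of 70Z/3, and the lowest 70Z/3 array was the dim replicate 2 with miR-Neg. The difference was −1.59 ± 0.28 (SE, adjusted p = 0.00324), which is 3.00-fold lower in '18-81'. The probe lies at chr17:35403886-35403945 (mm9, plus strand). H2-K1, H2-D1 and their neighbours are near-identical copies that also differ between mouse strains, so how far each probe reads its own gene, and whether it matches the alleles of both lines equally, was not tested.

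B2m, the light chain shared by all class I heavy chains, had levels of 6.25 and 6.99 in '18-81' with miR-125b and 6.27 and 7.15 in '18-81' with miR-Neg, against 7.64 and 8.23 in 70Z/3 with miR-125b and 7.85 and 7.59 in 70Z/3 with miR-Neg. In '18-81' replicate 2 was above replicate 1 under both duplexes, and the groups still did not overlap between the lines. The difference was −1.16 ± 0.29 (SE, adjusted p = 0.018), which is 2.24-fold lower in '18-81'. The B2m gene is outside the MHC, and its probe lies at chr2:121978401-121978460 (mm9). The B2m call is close to the threshold: leaving out replicate 1 of '18-81' with miR-125b, replicate 1 of '18-81' with miR-Neg, replicate 2 of 70Z/3 with miR-125b or replicate 1 of 70Z/3 with miR-Neg gave adjusted p of 0.0543, 0.0583, 0.0739 and 0.0525.

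The promoters of these 3 genes are printed because all 3 chains were lower in '18-81' and because their promoters carry the same short motifs. Within the lines H2-D1 and B2m did not vary alike: after the mean of each line was removed, they correlated at r = -0.0667 over the 8 arrays. Which of them H2-K1 followed depended on its probe. The first H2-K1 probe gave r = 0.914 with B2m and r = -0.052 with H2-D1, while the second gave r = -0.0961 with B2m and r = 0.958 with H2-D1. The sequences come from RefSeq on GRCm38.p6, 5′ to 3′ in the direction of the gene, and capitals mark matches on either strand to AANNGAAA (letters of sites for interferon regulatory factors, IRF), GGNNTTNCC (kappaB), TGACG (part of the X box) and ATTGG (the Y box). The windows are chr17:34000354-34000462 for H2-K1 (minus strand), chr17:35262919-35263027 for H2-D1 (plus strand) and chr2:122147545-122147643 for B2m (plus strand).
H2-K1: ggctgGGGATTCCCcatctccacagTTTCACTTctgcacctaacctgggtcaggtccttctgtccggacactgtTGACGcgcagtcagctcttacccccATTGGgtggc
H2-D1: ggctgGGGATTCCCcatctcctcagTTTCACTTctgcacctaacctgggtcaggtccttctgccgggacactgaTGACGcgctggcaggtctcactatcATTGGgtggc
B2m: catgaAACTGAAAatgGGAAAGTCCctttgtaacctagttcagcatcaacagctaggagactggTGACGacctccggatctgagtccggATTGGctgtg

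H2-K1 and H2-D1 were identical at 98 of 109 bases of this window. In both, the kappaB letters start 20 bases before the IRF letters, these start 49 bases before TGACG, and TGACG starts 25 bases before ATTGG. Upstream of the window both also hold the kappaB letters on the opposite strand, 140 bases before the start of H2-K1 and 186 before that of H2-D1. In B2m the IRF letters come first and the kappaB letters lie on the other strand, but TGACG again starts 25 bases before ATTGG. Of 32851 RefSeq promoters searched on both strands over the 250 bases before the start, 0.0913% (30) had TGACG and ATTGG at this distance and orientation, and 0.18% (59) held all of the IRF, kappaB, X and Y letters at any distance. Singly the letters are common: 21.3% of promoters had AANNGAAA, 13.5% GGNNTTNCC, 17.8% TGACG and 33.8% ATTGG. The 30 promoters at this distance belong to 26 genes, of which 22 were tested, 6 were called lower and 3 higher in '18-81', and 13 were not called. H2-K1, H2-D1 and B2m are 3 of the 6, and of the other 19 tested 3 were lower, where 16.2% of all genes were. The 59 with all of the letters belong to 57 genes, of which 32 were tested, 7 were called lower and 7 higher, and 18 were not called, and without the same 3 genes 4 of 29 were lower. The motifs and the distance were chosen with the class I promoters in view, so these counts describe the promoters and test nothing. A match is a run of letters and shows no binding.

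**Figure D2:**
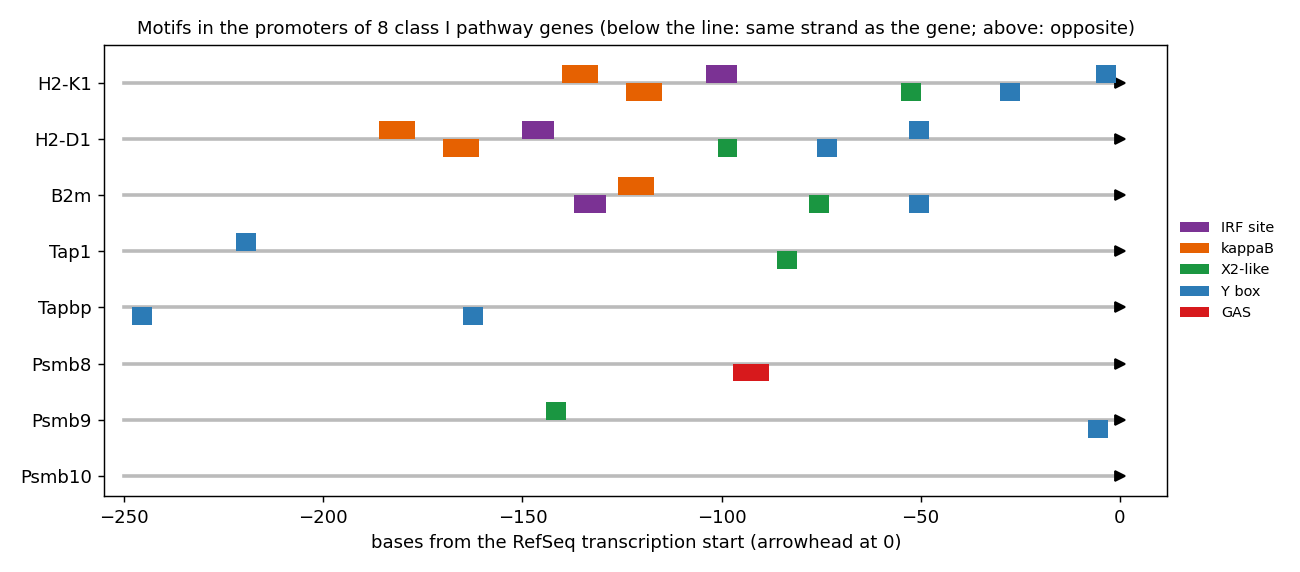
Motif matches in the 250 bases before the RefSeq transcription start of the 8 genes with a promoter in the table, with the distance from the start in bases on the horizontal axis, boxes below a line for the strand of the gene and boxes above it for the opposite strand. H2-K1, H2-D1 and B2m have TGACG (X2-like) followed by ATTGG (Y box) 25 bases later, preceded by the kappaB and IRF letters, and Psmb10 has none of the motifs.

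The peptide pump and its partner did not pass the test between the lines. Tap1, the subunit whose gene shares its promoter region with Psmb9, had levels of 0.70, 0.36, 1.03 and 0.01 on the '18-81' arrays (miR-125b replicates 1 and 2, then miR-Neg replicates 1 and 2) and 1.62, 1.20, 1.52 and 0.46 on the 70Z/3 arrays in the same order. The lowest 70Z/3 value overlapped the '18-81' arrays. The difference was −0.68 ± 0.33 (SE, adjusted p = 0.167), and with the replicate number as a block it passed (−0.68, adjusted p = 0.0219). Tap2, the other subunit, was between 4.98 and 5.19 in '18-81' and between 5.03 and 5.45 in 70Z/3, a difference of −0.13 with a 95% interval from −0.56 to 0.31 that turned to 0.04 with median scaling. The Tap1 and Tap2 probes lie at chr17:34330854-34330913 and chr17:34353116-34353175 (mm9).

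Tapbp had levels of 2.69 and 4.71 in '18-81' with miR-125b and 2.70 and 2.84 in '18-81' with miR-Neg, against 3.61 and 3.93 in 70Z/3 with miR-125b and 3.56 and 3.47 in 70Z/3 with miR-Neg. The value of 4.71, from replicate 2 of '18-81' with miR-125b, stood apart from the other 3 arrays of the line, which were all below the 70Z/3 arrays. With all arrays the difference was −0.41 ± 0.41 (SE, adjusted p = 0.503), and without that array it was −0.91 (adjusted p = 0.026). The probe has 1 spot per array, at chr17:34065963-34066022 (mm9), so no second reading of this value exists on the array.

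Among the immunoproteasome subunits Psmb9 and Psmb10 were lower in '18-81', and Psmb8 did not pass. Psmb9 (beta 1i) had levels of 5.04 and 4.99 in '18-81' with miR-125b and 5.02 and 4.73 in '18-81' with miR-Neg, against 5.68 and 6.08 in 70Z/3 with miR-125b and 5.85 and 6.03 in 70Z/3 with miR-Neg. The lines did not overlap, with a gap of 0.64, and the difference was −0.96 ± 0.20 (SE, adjusted p = 0.00703), or 1.95-fold lower. Psmb10 (beta 2i) had levels of 6.10 and 6.33 in '18-81' with miR-125b and 6.00 and 6.34 in '18-81' with miR-Neg, against 6.76 and 7.23 in 70Z/3 with miR-125b and 6.93 and 7.83 in 70Z/3 with miR-Neg. The lines did not overlap, with a gap of 0.42, and the difference was −0.99 ± 0.26 (SE, adjusted p = 0.0219), or 1.99-fold lower. The Psmb10 call was lost without an intensity filter (adjusted p = 0.0533) and without replicate 1 of '18-81' with miR-125b, replicate 1 of '18-81' with miR-Neg or replicate 2 of 70Z/3 with miR-125b (adjusted p of 0.0612, 0.0717 and 0.0897).

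Psmb8 (beta 5i) had levels of 6.07, 6.22, 6.07 and 5.97 on the '18-81' arrays and 6.36, 6.66, 6.08 and 6.70 on the 70Z/3 arrays, with replicate 1 of 70Z/3 with miR-Neg inside the range of '18-81'. Its difference was −0.37 with a 95% interval from −0.87 to 0.13 (adjusted p = 0.244). Psmb8, Psmb9, Tap1 and Tap2 lie side by side in the MHC on chromosome 17, with Psmb9 at chr17:34319174-34319233 and Psmb8 at chr17:34337771-34337830 (mm9, positions of the probes). The Psmb10 gene is outside the MHC, with its probe at chr8:108459677-108459736. The starts of Psmb9 and Tap1 face away from each other, and the 225 bases between them are printed because 1 of the genes passed the test and the other did not. They lie at chr17:34187331-34187555 (GRCm38.p6, RefSeq) and run here in the direction of Tap1, with the same motif letters in capitals.
Psmb9 to Tap1: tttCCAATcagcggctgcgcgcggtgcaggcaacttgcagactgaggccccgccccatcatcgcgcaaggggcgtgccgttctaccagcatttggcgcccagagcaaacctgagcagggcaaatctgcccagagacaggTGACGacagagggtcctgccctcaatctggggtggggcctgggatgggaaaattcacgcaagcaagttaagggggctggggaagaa

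This stretch holds the Y letters next to Psmb9, on its strand, and TGACG 86 bases before the start of Tap1, and neither the IRF nor the kappaB letters as searched. Whether Psmb9 and Tap1 differ from each other in their response to the line was not tested. The promoter of Psmb8 held TTCNNNGAA (letters of the GAS element bound by STAT factors, in 7.02% of promoters) 97 bases before its start. Tapbp held ATTGG at 2 places, and Psmb10 held none of the motifs. RefSeq promoters were at hand for 8 of the 10 genes.

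Nlrc5, the transactivator of this pathway, had levels of −0.64 and −0.58 in '18-81' with miR-125b and −0.81 and −0.33 in '18-81' with miR-Neg, against 1.76 and 1.57 in 70Z/3 with miR-125b and 1.96 and 1.27 in 70Z/3 with miR-Neg. The lines were 1.60 apart at their nearest arrays. The difference was −2.23 ± 0.23 (SE, adjusted p = 0.000149), or 4.69-fold lower in '18-81', the smallest adjusted p of the 10 genes. This probe lies at chr8:97051105-97051164 (mm9). A second probe, upstream at chr8:97030478-97030624, did not differ in this way: it averaged −3.99 ± 0.21 in '18-81' and −3.97 ± 0.18 in 70Z/3 (SD of 4 arrays), and was well above background on 6 of 8 arrays. Its difference of −0.02 had a 95% interval from −0.51 to 0.48 (adjusted p = 0.96). So close to background, these values cannot show whether a difference between the lines is absent at this probe. The mean of both probes takes them in, and with it Nlrc5 was lower by a smaller amount (−1.12, adjusted p = 0.00363). The span of the second probe, 147 bases, is longer than the 60 bases of the others, and no annotation of mm9 was at hand to place either probe in an exon.

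**Figure D3:**
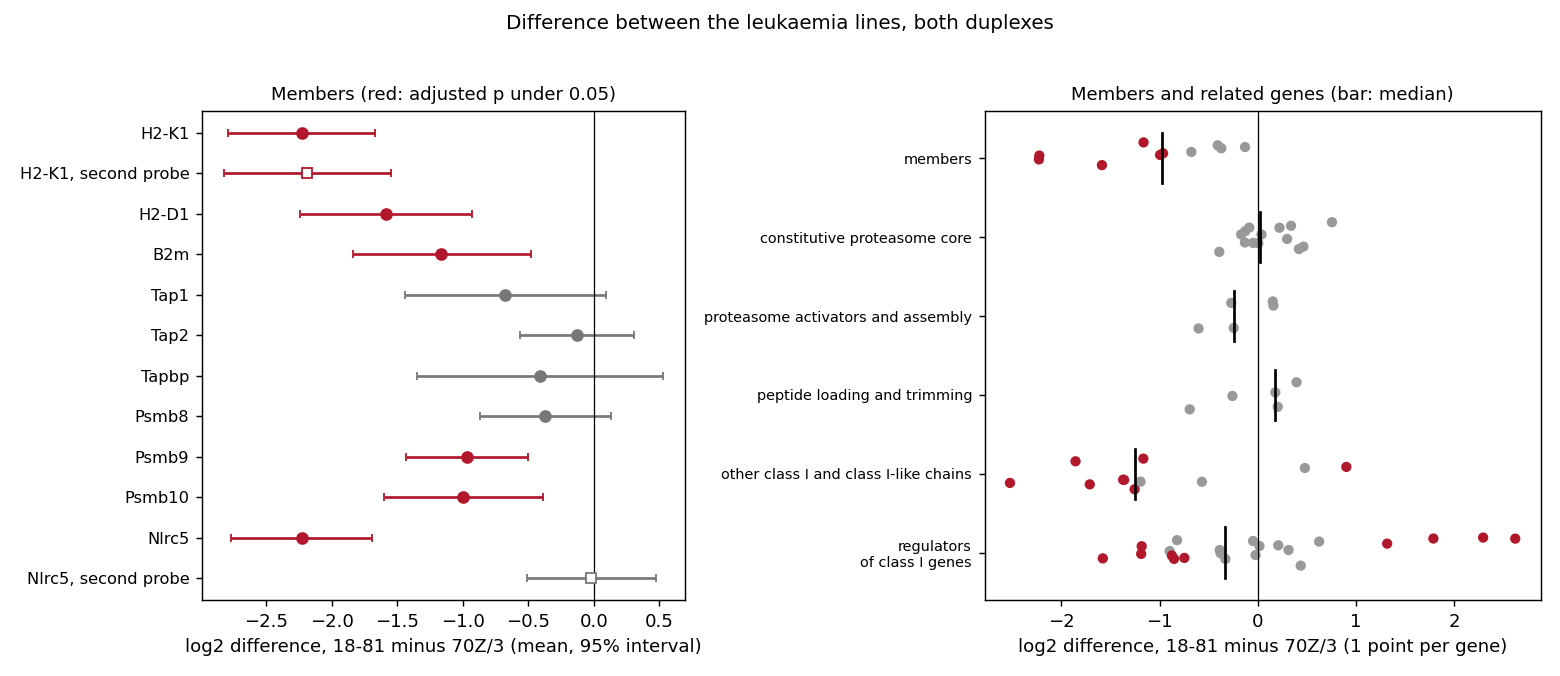
Difference between the lines in log2 units, '18-81' minus 70Z/3 over both duplexes, for each probe of the 10 genes with its 95% interval (left, open squares for second probes) and for each gene of the members and 5 related lists (right, bar at the median), in red where the adjusted p was under 0.05. The members have a median of −0.98, none of the 14 constitutive core subunits passed, and the other class I chains fell mostly to the left of 0.

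Taken under 1 duplex at a time, the line difference kept its direction for all 10 genes. Under miR-125b alone 3 of the 10 passed, H2-K1 (−2.19), H2-D1 (−1.61) and Nlrc5 (−2.28), where 21.1% of all genes passed in either direction and 11.4% as lower. Under miR-Neg alone 4 passed, these 3 (−2.27, −1.57 and −2.18) and Psmb9 (−1.06), where 21.6% of all genes passed and 11.7% as lower. B2m then had adjusted p of 0.0603 under miR-125b and 0.136 under miR-Neg, and Psmb10 had 0.198 under miR-125b and 0.0546 under miR-Neg. H2-K1, H2-D1 and Nlrc5 passed in every alternative that was run, with differences between −2.37 and −2.06, −1.87 and −1.31, and −2.40 and −1.12. The 6 called genes are also the 6 whose arrays did not overlap between the lines, where 18.2% of all genes did not overlap and were lower in '18-81'.

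Related genes of the pathway were taken from 5 lists. The constitutive proteasome core, which the immunoproteasome subunits replace in part, had 0 of 14 subunits called between the lines, and its median lay 0.006 above that of all genes. The nearest was Psma5, an alpha ring subunit, at 0.76 ± 0.32 (SE, adjusted p = 0.118), which passed with quantile normalisation (0.74, adjusted p = 0.0182) and with the replicate block (0.76, adjusted p = 0.0162). Psmb5, the constitutive subunit that Psmb8 replaces, differed by −0.39 (adjusted p = 0.311). Of 5 proteasome activators and assembly factors none passed, with Psme2, a subunit of the interferon-inducible activator PA28, at −0.60 ± 0.27 (adjusted p = 0.132, and 0.0153 with the replicate block). Of 5 genes for peptide loading and trimming none passed. The nearest was Erap1, the peptidase that trims peptides in the endoplasmic reticulum, at −0.69 ± 0.23 (adjusted p = 0.0533). It passed under 8 of 20 alternatives, among them the replicate block (adjusted p = 0.00913) and quantile normalisation (adjusted p = 0.0438).

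Among 16 other class I and class I-like chains 11 were measured, and 7 were lower and 1 higher in '18-81'. Of all genes 16.2% were lower and 31.7% were called in either direction. Cd1d1, which presents lipids to NKT cells, had levels from −0.04 to 0.52 in '18-81' and from 2.23 to 3.44 in 70Z/3, or 5.75-fold lower (−2.52 ± 0.28, adjusted p = 0.000208). Mr1, which presents vitamin B metabolites to MAIT cells, had levels from −1.43 to −0.77 in '18-81' and from −0.07 to 1.54 in 70Z/3, or 3.62-fold lower (−1.86 ± 0.29, adjusted p = 0.00159). H2-Q7 was 3.27-fold lower (adjusted p = 0.00146) and H2-Q2 2.57-fold lower (adjusted p = 0.00338), both chains of the Qa region, and H2-T23, H2-Q10 and H2-Q6 were the others that were lower. Of these, H2-Q7 holds all 4 kinds of letters in its promoter, as does H2-Q4, which did not pass (0.48, adjusted p = 0.247). The exception was H2-M3, which presents formylated peptides: it was 1.87-fold higher in '18-81' (0.90 ± 0.27, adjusted p = 0.0358), a call that was lost under 9 of 20 alternatives, and its promoter is among the 30 with TGACG and ATTGG at the same distance. The light chain B2m pairs with these chains too, and the signal of the Q and T probes may be shared between near-identical copies.

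Of 25 regulators of class I genes 23 were measured, 4 of them higher and 6 lower in '18-81'. Among all genes 31.7% were called in either direction and 16.2% as lower. Those higher were Irf8, an interferon regulatory factor of B cells and macrophages, Ifngr2, a chain of the interferon gamma receptor, Ciita, the class II counterpart of Nlrc5, and Rfx5, a subunit of the RFX complex that binds the X box. Irf8 had levels from 7.28 to 7.53 in '18-81' and from 4.83 to 5.38 in 70Z/3, or 4.91-fold higher (adjusted p = 3.01e-05). Ifngr2 was 3.46-fold higher (adjusted p = 0.00014). Ciita was well above background on all 4 arrays of '18-81' but on 1 of 4 of 70Z/3, so that it was tested only because of its level in '18-81', where it was at least 4.43-fold higher (adjusted p = 0.000518). With normexp background, which adds a constant to the signal, its difference was 1.02 log2 units (adjusted p = 0.00219). H2-Aa, a class II chain also among the genes with all 4 kinds of letters, was singled out after its value was seen. It was likewise above background on all 4 arrays of '18-81' but on 1 of 4 of 70Z/3. Thus H2-Aa too was tested only because of its level in '18-81', where it was at least 120-fold higher. Its adjusted p of 6.62e-07, like that of Ciita, belongs to the fit to values partly below background and not to the bound. Rfx5 was not above background in 70Z/3 with miR-Neg and was at least 1.68-fold higher (adjusted p = 0.0117, again of the fit and not of the bound). The Rfx5 call was lost with normexp background (0.31 log2 units, adjusted p = 0.249), under miR-125b alone (0.75, adjusted p = 0.282) and without replicate 1 of 70Z/3 with miR-125b (1.16, adjusted p = 0.0504).

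Those lower were Jak1, Jak2, Irf1, Irf9, Ifnar2 and Nfyc. Jak1, a kinase of the interferon receptors, was 2.28-fold lower in '18-81' (adjusted p = 0.00285) and Jak2 was 1.68-fold lower (adjusted p = 0.0298), a call that was lost under 11 of 20 alternatives. Irf1, an activator of class I and immunoproteasome genes, had levels of 1.96, 1.42, 1.95 and 1.42 on the '18-81' arrays and 2.96, 2.81, 2.98 and 2.73 on the 70Z/3 arrays, or 2.27-fold lower (adjusted p = 0.00481). Irf9, the DNA-binding subunit of the interferon-stimulated factor ISGF3, was 2.98-fold lower (−1.58 ± 0.37, adjusted p = 0.0133), although its arrays overlapped: 1.02, 0.99, 1.00 and 0.88 in '18-81' against 3.36, 3.33, 2.68 and 0.84 in 70Z/3, the last from the dim array. Under miR-Neg alone its difference was −0.82 and the call was lost (adjusted p = 0.339). Ifnar2, a chain of the type I interferon receptor, and Nfyc, a subunit of the factor that binds the Y box, were 1.81-fold and 1.83-fold lower, calls that were lost under 8 and 6 of 20 alternatives. The genes beyond the first 4 by p in each list were named after their values were seen. The interferon genes Ifnb1 and Ifng were not measured above background on both arrays of any group.

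Within a line, miR-125b left no called difference in any of the 10 genes, nor in any other gene: 0 of 18793 genes (0%) passed in 70Z/3, in '18-81', in the average of both lines and in the difference of the effects. At an unadjusted p under 0.05 there were 234 genes in '18-81', 1104 in 70Z/3, 510 in the average and 608 in the difference of effects. In each comparison 940 of the 18793 genes would be expected there by chance alone. Of the 10 genes 0 were there in each, which says little beside these counts. The intervals are wide, with 2 arrays per group and a fit that did not take the replicate number as a block. In '18-81' H2-K1 differed by 0.08 with a 95% interval from −0.71 to 0.87, H2-D1 by 0.15 (−0.77 to 1.08), B2m by −0.09 (−1.05 to 0.87) and Nlrc5 by −0.04 (−0.81 to 0.72). In 70Z/3 H2-K1 differed by 0.00 (−0.79 to 0.79), H2-D1 by 0.19 (−0.74 to 1.12), B2m by 0.22 (−0.75 to 1.18) and Nlrc5 by 0.06 (−0.71 to 0.82). These intervals leave room for changes of H2-K1 of up to 0.87 log2 units, and for H2-K1, H2-D1 and Nlrc5 none reaches the size of the difference between the lines.

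**Figure D4:**
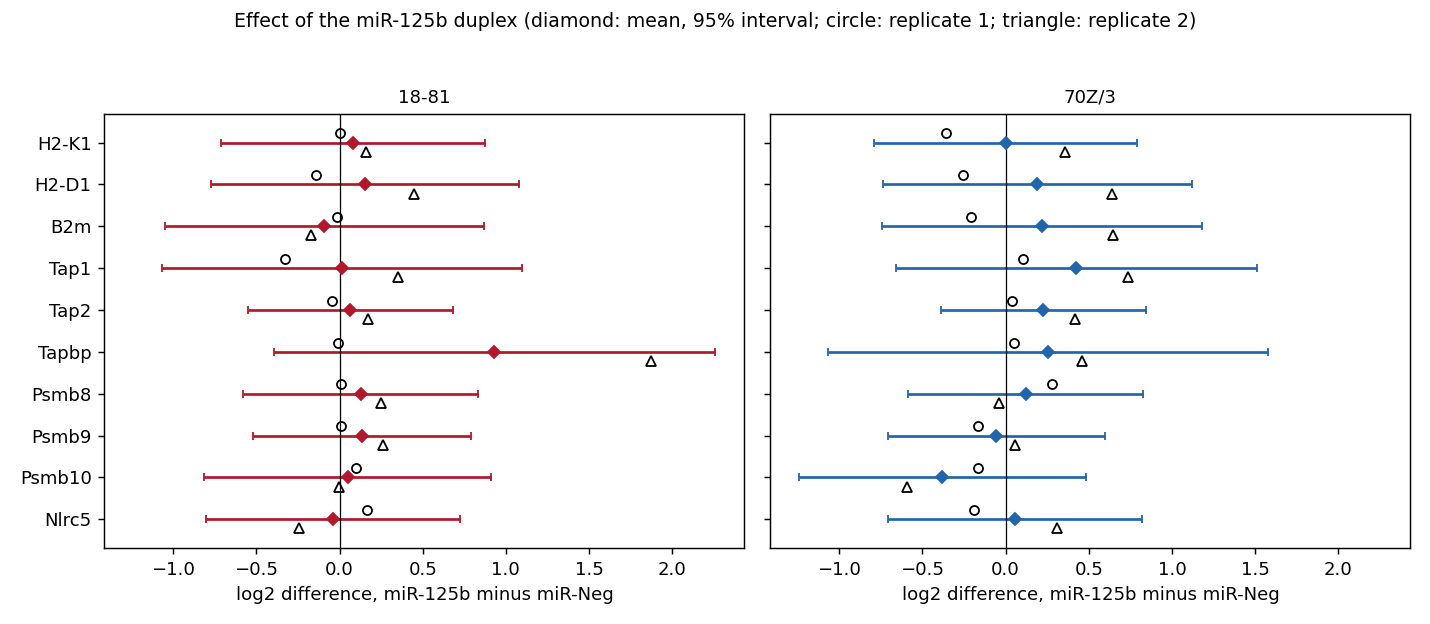
Difference of miR-125b minus miR-Neg in log2 units for the 10 genes in '18-81' (left) and 70Z/3 (right), with diamonds and bars for the mean and its 95% interval, circles for replicate 1 and triangles for replicate 2. Every interval includes 0. In 70Z/3 the triangles lie to the right of the circles for 8 of the 10 genes, and in '18-81' the value of 1.87 is replicate 2 of Tapbp.

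The proteasome and pump genes gave the same picture within a line. In '18-81' the largest difference was that of Tapbp, 0.93 ± 0.57 (SE, adjusted p = 1), made up of −0.01 in replicate 1 and 1.87 in replicate 2. Psmb8 was the only member whose arrays did not overlap in '18-81' (6.07 and 6.22 with miR-125b, 6.07 and 5.97 with miR-Neg, the nearest arrays equal to 2 decimals), a count of 1 of 10 higher and 0 lower where 7.77% of all genes did not overlap as higher and 5.16% as lower. In 70Z/3 Tap2 (5.15 and 5.45 with miR-125b, 5.11 and 5.03 with miR-Neg) and Tapbp did not overlap, 2 of 10 higher and 0 lower, where 14.9% of all genes did so as higher and 22.7% as lower. Psmb10 had the lowest difference in 70Z/3, −0.38 ± 0.37 (SE, adjusted p = 0.785), and Tap1 the highest, 0.42 ± 0.47 (SE, adjusted p = 0.798).

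The replicates of 70Z/3 differed among themselves. Here the medians of each replicate pair are set against the median of all genes in that same pair. On this scale the median of the 10 genes in 70Z/3 was −0.09 in replicate 1 and 0.59 in replicate 2. In '18-81' it was −0.03 in replicate 1 and 0.18 in replicate 2. Over both replicates the median of all genes stood at −0.13 in 70Z/3. The replicate 2 pair of 70Z/3 includes the dimmest array, on the miR-Neg side, and its part in these values was not tested. Among the related genes, Irf9 differed in 70Z/3 by 0.68 in replicate 1 and 2.49 in replicate 2 (1.58 ± 0.53, adjusted p = 0.764, but 2.50 and 0.0169 without replicate 1 of 70Z/3 with miR-Neg), and Stat2, its partner in ISGF3, by 0.43 and 1.44 (0.94 ± 0.33, adjusted p = 0.771). In 70Z/3 H2-T24 had levels of −0.88 and −1.23 with miR-125b and −1.92 and −4.29 with miR-Neg, of which 1 was above background. Its difference of 2.05 ± 0.68 (SE) was not called (adjusted p = 0.764). Like that of Irf9, it was larger without replicate 1 of 70Z/3 with miR-Neg (3.23), and leaving out 1 array gave 0.866 to 3.23. The 14 constitutive core subunits had a median 0.41 below that of all genes in 70Z/3, at −0.11 in replicate 1 and −0.72 in replicate 2, and 0.04 above it in '18-81', with 0 called in both lines. The core's median in 70Z/3 was −0.79 without replicate 1 of miR-Neg and −0.01 without its replicate 2, the dimmest array. Psmb5 stood at −0.32 in replicate 1 and −1.04 in replicate 2 of 70Z/3 (−0.68 ± 0.37, adjusted p = 0.774). In every one of the 5 lists 0 genes passed in either line.

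The difference between the effects in the lines was not called for any member, with a median over the 10 genes 0.18 below that of all genes, which ranged from −0.40 to 0.06 when 1 array was left out. For H2-K1 it was 0.08 with a 95% interval from −1.04 to 1.20, for Tapbp 0.67 (−1.20 to 2.55) and for B2m −0.31 (−1.67 to 1.05). Averaged over the lines, the effect of miR-125b ranged over the 10 genes from −0.17 for Psmb10 to 0.59 for Tapbp, with adjusted p of 1.

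The genes whose levels followed those of the 10 most closely over the 8 arrays, by Pearson's r with the mean of their standardised levels among 14583 candidates, were Arsg (r = 0.9899), Shisa5 (r = 0.9898) and Qsox1 (r = 0.9884) together with 2 transcribed regions without a name. All 8 arrays share the split into lines, which dominates these values. Arsg, a sulfatase, was 2.7 log2 units lower in '18-81', Shisa5 1.63 lower and Qsox1 1.52 lower, in the same comparison as the members. After the mean of each line was removed, the closest named genes were Msi1 (r = 0.9732), Rab2b (r = 0.9686) and Gsdmd (r = 0.9578), over 8 arrays that share a slide row by replicate number. They are the highest of 14583 candidates, and how high r runs by chance in such a search was not tested. This pattern was high on replicate 2 with miR-125b of '18-81' (0.696), the array with the Tapbp value of 4.71, and of 70Z/3 (0.663). On the other arrays it lay between −0.354 and 0.00585. Of the members, H2-K1 was nearest to the common pattern over the 8 arrays (r = 0.9758) and Tapbp farthest (r = 0.5599). Each member is itself part of that pattern, so these values only describe the set.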

How the data were processed

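RNA from 8 cultures was hybridised to 1-colour Agilent mouse arrays, 1 array per culture and all on 1 slide. The deposited scanner files hold the processed intensity from Agilent Feature Extraction 10.7.3.1, background-subtracted and detrended, per the file headers, with probe positions in mm9. The authors' deposited series table, used as an alternative, holds linear intensity values. The labels and headers used here do not state how these were normalised. The medians of its columns were 14.64 to 14.71, with no centring by gene, and all 8 columns had the same maximum, 650812.1375. Quantile normalisation leaves columns with a shared maximum, so this alternative may largely repeat the one with quantile normalisation.

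Control spots and outlier spots (140 to 203 per array) were left out and none was saturated. The remaining spots were averaged per probe as log2 of the deposited intensity minus the array's 75th percentile. Symbols came from the RefSeq table for GRCm38.p6: of 55681 probes, 26413 matched through an accession, 3859 through a symbol and 735 through a former symbol, while 24674 have the name in the file. Genes needed 1 probe well above background on both arrays of some group to be tested, and the brightest probe stood for the gene. limma 3.58.1 in R 4.3.3 fitted 4 group means to the 8 arrays, with Benjamini-Hochberg adjustment at 0.05 over all genes. A second fit covered 25316 probes. Where a group was not above background, the fold is a bound, computed as the brighter group's mean over the dimmer group's, each dim array entering at its own value or at the faintest signal that was well above background on that array, whichever was higher. The fit was run on simulated data with noise drawn independently for each array. Such data lack the shared deviations of same-numbered arrays that are described below, so the fit was not tested under them.

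Named genes were the 10 class I genes, up to 4 genes per list and comparison by smallest p, and the 5 genes most like the 10 by each of 2 measures. The 10 genes and the lists were chosen with earlier results of these data known. Replicates come from 2 independent experiments, per the series' design text, and same-numbered arrays deviated together (r of 0.374 to 0.646 over the 6 pairs of groups), so the number counts as a pairing. It also follows the slide row. The main fit did not use this pairing, so its p-values and intervals treat the arrays of different groups as unpaired. Blocks by replicate number were run as alternatives. Alternatives were other background correction, scaling, filters, probe rules, moderation, replicate blocks, the deposited table and leaving out each array. The line difference under each duplex alone was added after the data were seen. The number of arrays limits the precision.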

Additional observations from a re-analysis of the deposited data

Results flagged for a closer look

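The Tapbp probe read 4.71 on replicate 2 of '18-81' with miR-125b, against 2.69 to 2.84 on the other 3 arrays of the line, a gap that made up 0.929 of the range of the 4 arrays. The Psmb9 probe read 4.73 on replicate 2 of '18-81' with miR-Neg, against 4.99 to 5.04 on the other 3, a gap of 0.846 of the range. Both exceed Dixon's 95% critical value for 4 values, which chance exceeds in about 1 in 20 groups. The check was run on each of the 12 probes in each line, with the arrays of both duplexes together, so some flags are expected by chance. Each probe has 1 spot per array.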

How the results depend on the processing

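The differences between '18-81' and 70Z/3 in H2-K1, H2-D1 and Nlrc5 kept their direction and their call under all 20 alternatives. The B2m and Psmb10 calls were each lost under 6 of the 20 and the Psmb9 call under 1, always with the same direction. Of the 10 genes 3 were called under miR-125b alone and 4 to 7 when 1 array was left out. Their median relative to all genes was −0.997, and it was −0.741 without an intensity filter. With the replicate number as a block Tap1 was called (−0.676, adjusted p = 0.0219), as were Psma5 (0.757), Psmb4 (0.466, adjusted p = 0.0496), Psme2 (−0.602) and Erap1 (−0.692), and no other call of the 10 genes changed, in any comparison. The block within each line called 8860 genes in all, Tap1 (adjusted p = 0.0359) and the other 6 class I genes among them. Of the 20 alternatives, 8 called Erap1, 6 Psma5, 5 Psme2 and 3 Psmb4. Requiring a signal well above background on all 8 arrays left 14667 genes, with 1698 called higher and 1814 lower. Median scaling turned the line difference of Tap2 to 0.0374. Leaving out 1 array gave ranges through 0 for Tapbp (−0.91 to 0.0955), Pdia3 (−0.0472 to 0.406) and Tapbpl (−0.52 to 0.00484). Calls close to the threshold among the related genes were those of Jak2, H2-M3, Ifnar2, Nfyc and Rfx5, lost under 11, 9, 8, 6 and 3 alternatives, while Irf9, H2-Q6 and H2-Q10 were each lost under 1.

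The effect of miR-125b was called for 0 of the 10 genes under every alternative, and its sign was not settled for most of them. In 70Z/3 Psmb9 (−0.0566) turned to 0.00632 with normexp background, 0.237 with quantile normalisation, 0.0717 with median scaling and 0.267 in the deposited table, and Nlrc5 turned to −0.0515 with the mean of both probes. Leaving out 1 array gave −0.282 to 0.284 for H2-K1, −0.368 to 0.75 for H2-D1, −0.0793 to 0.515 for B2m, −0.105 to 0.951 for Tap1, −0.189 to 0.428 for Psmb8, −0.258 to 0.145 for Psmb9, −0.83 to 0.0706 for Psmb10 and −0.288 to 0.403 for Nlrc5. In '18-81' Tap1 turned to −0.00365 with normexp background. Leaving out 1 array there gave −0.213 to 0.374 for H2-K1, −0.0838 to 0.389 for H2-D1, −0.535 to 0.352 for B2m, −0.499 to 0.524 for Tap1, −0.0436 to 0.172 for Tap2, −0.076 to 1.94 for Tapbp, −0.0123 to 0.283 for Psmb9, −0.123 to 0.219 for Psmb10, −0.278 to 0.196 for Nlrc5 and −0.00354 to 0.215 for the median of the 10. The median of the 10 in 70Z/3 lay between 0.0761 and 0.559. Over all genes the count of 0 did not hold when an array was left out, where the lone array of a group is taken to vary like the others. In 70Z/3 it was 57 higher and 151 lower without replicate 1 of miR-Neg, 5 higher and 170 lower without replicate 2 of miR-Neg and 102 higher and 3 lower without replicate 2 of miR-125b. In '18-81' it was 3 higher and 73 lower without replicate 2 of miR-Neg, 3 higher and 48 lower without replicate 1 of miR-Neg, 41 higher and 17 lower without replicate 2 of miR-125b and 7 higher and 4 lower without replicate 1 of miR-125b. With all arrays it was 3 genes in '18-81' with quantile normalisation or the deposited table and 2 with the replicate block, and 1 in 70Z/3 with normexp background or the block within each line. The cause of these changes was not tested.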

Other observations

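The 2 probes of H2-K1 agreed on the difference between the lines but not on the arrays within a line. After the mean of each line was removed, they correlated at r = -0.0889 over the 8 arrays, while the first probe followed B2m (r = 0.914) and the second followed H2-D1 (r = 0.958) and Tap1 (r = 0.925) and ran against Psmb10 (r = -0.877). Within the 10 genes, Tap1 and Psmb10 also ran against each other (r = -0.926). These values describe 8 arrays that share a slide and 2 experiments, and replicate 2 of 70Z/3 with miR-Neg, the dimmest array, was the lowest 70Z/3 array for the second H2-K1 probe, H2-D1, B2m, Tap1, Tap2, Tapbp and the first Nlrc5 probe and the highest for Psmb10 and Psmb8.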
